A study of Mus musculus with 6 samples.

Results

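Phase I enzymes make the first chemical change to drugs, dietary toxins and many lipids. Cytochrome P450 enzymes of families 1 to 4 and the flavin-containing monooxygenases (Fmo genes) add oxygen to their substrates. The P450 enzymes of the endoplasmic reticulum draw electrons from the reductase Por and from cytochrome b5 (Cyb5a), and the epoxide hydrolases Ephx1 and Ephx2 open the reactive epoxides that some P450 enzymes release. In the intestine these enzymes sit mainly in absorptive enterocytes, where they meet ingested compounds before the liver does.

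The genes described here are all those of mouse P450 families 1 to 4 and the Fmo genes, by symbol, with Ephx1, Ephx2 and Cyb5a. Por, the reductase, was not analysed here. The platform annotation named 61 of these genes with a single symbol, among 18193 such genes on the array. Where several probe sets named a gene, the one with the highest average was used, and 29 of the 61 read above 5 (log2) on at least 3 arrays and were tested within a fit of 8893 genes.

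Total RNA of intestinal epithelial cells was hybridised to Affymetrix arrays, 1 array per mouse, with 3 mice in each group. The GGTase-Iβ deficient mice carried a floxed gene for the beta subunit (Pggt1b) of GGTase-I, an enzyme that attaches a lipid to small GTPases, and the VillincreERT2 transgene, a recombinase that tamoxifen activates and that the Villin promoter directs to the epithelium. The floxed control mice carried the same floxed gene without the transgene. All 6 mice were of mixed 129/SV and C57BL/6 background, all received 1 mg tamoxifen on each of 3 days, and cells were taken on day 6. The sources used here give no age, sex or segment of intestine. Only the deficient mice carried the recombinase, so Cre activity and loss of the enzyme cannot be told apart, and in a bulk preparation fewer cells of a type and less RNA per cell cannot be told apart either.

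The preparations carried the markers of intestinal epithelium. Epcam read between 14.47 and 14.66 on deficient arrays, against 14.34 to 14.41 on control arrays. None of the 8 enterocyte markers measured passed the test, and their median log2 change was 0.11. Of 5 hepatocyte genes, Alb, Ahsg, Apoh and Fgb stayed at or below 5 on all arrays. The other, Ttr, read between 8.16 and 8.54 on deficient arrays, against 7.30 to 8.49 on control arrays. None of 5 markers of proximal small intestine, 4 of ileum or 4 of colon stayed at or below 5 on all arrays, and 1 of these, the ileal receptor Cubn, fell (log2 change -1.25, limma adjusted p = 0.0237). The other ileal markers Slc10a2, Fabp6 and Guca2a were at 0.92, 0.71 and 0.16, and none of these passed. The proximal markers did not share a direction, and none passed. Cybrd1 was at 3.21 and Lct at -0.94, each without overlap between the groups. Gata4, Slc40a1 and Fabp1 were at 0.16, -0.14 and -0.23. Control replicate 2 was the lowest array for Fabp6, at 12.73 against 15.52 and 15.73 in the other controls, and for Slc10a2, at 5.85 against 8.46 and 9.94. Of 10 T cell and intraepithelial lymphocyte genes 8 fell, where 1.98% of all genes tested were called lower. Among the 8, Il2rb, Cd3d and Cd7 had no deficient array above 5 and passed the filter through the control arrays alone. The mean level of the list lay between 5.02 and 6.60 on deficient arrays, against 9.14 to 9.33 on control arrays. Pggt1b itself did not separate the groups, at 9.16 ± 0.52 in deficient arrays and 9.39 ± 0.14 in control arrays (SD, n = 3 each), with a limma adjusted p of 0.678, and where its probes lie relative to the deleted part is not given in what was used here. The direction of every change therefore rests on the labels.

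Of the phase I genes tested, 2 fell and 0 rose in deficient arrays. They were Ephx1 and the leukotriene hydroxylase Cyp4f18. The background share of lower calls over all 8893 genes was 1.98%, and that of higher calls was 0.112%. Most of the other tested genes had negative fitted changes that did not pass. The fitted change was below 0 for 24 of the 29 genes tested, where 54.6% of all genes tested were below 0, and their median log2 change was -0.63, against -0.04 over all genes. At an unadjusted p under 0.05, 11 of the 29 were lower and 0 higher, where the background was 11.3% lower and 5.60% higher. In 11 of the 29 every deficient array lay below every control array, against 16.7% of all genes, and in 0 every deficient array lay above, against 9.00% of all genes. These counts describe the 29 and are no test, since a gene high only in controls could pass the filter through the controls alone.

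**Figure D1:**
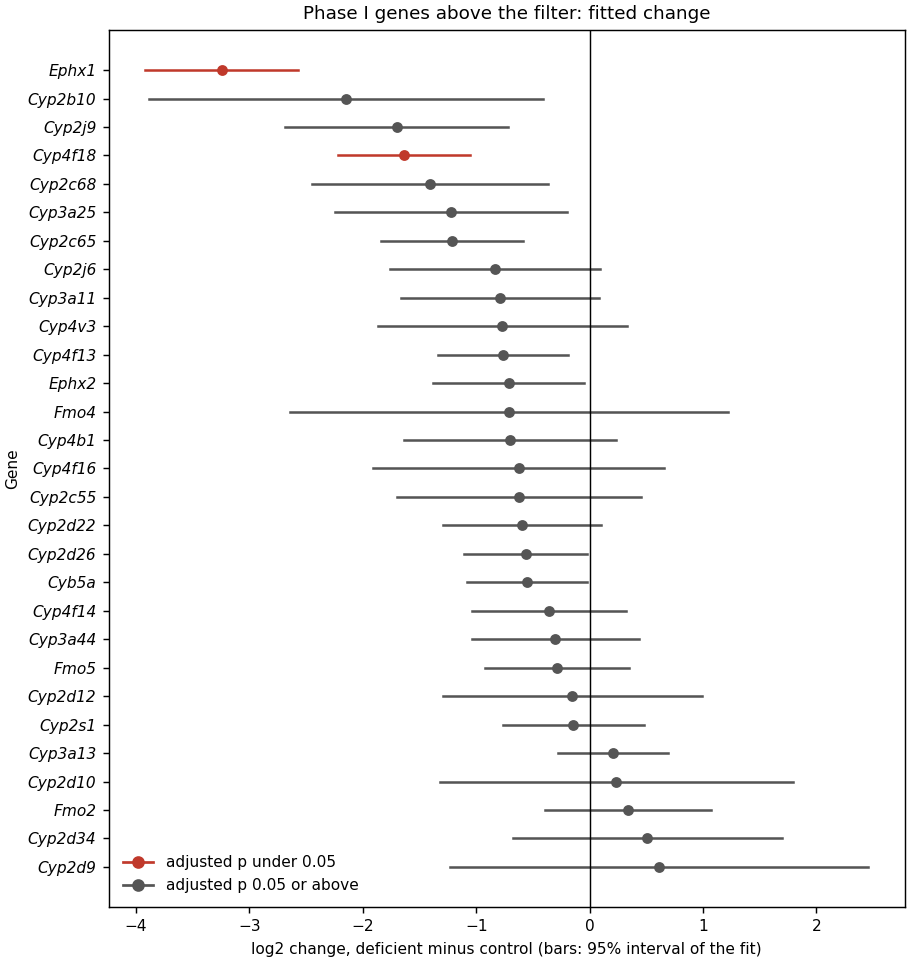
Fitted log2 change (deficient minus control, horizontal axis) of the 29 phase I genes above the filter, with 95% intervals of the limma fit as bars. Ephx1 and Cyp4f18, in red, passed at an adjusted p under 0.05, and 24 of the 29 points lie below 0.

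The promoters of 3 genes are shown because Ephx1 and Cyp4f18 fell and Cyp2b10 had the most negative fitted change among those that did not pass. Each is the RefSeq window of GRCm38.p6 from 250 bases before to 50 bases after the start site, given 5′ to 3′ on the strand of the gene, with capitals marking matches to 5 motifs searched on both strands. The Ephx1 window is chr1:181017520-181017819 on the minus strand, the Cyp4f18 window chr8:72009577-72009876 on the minus strand and the Cyp2b10 window chr7:25897408-25897707 on the plus strand.
Ephx1: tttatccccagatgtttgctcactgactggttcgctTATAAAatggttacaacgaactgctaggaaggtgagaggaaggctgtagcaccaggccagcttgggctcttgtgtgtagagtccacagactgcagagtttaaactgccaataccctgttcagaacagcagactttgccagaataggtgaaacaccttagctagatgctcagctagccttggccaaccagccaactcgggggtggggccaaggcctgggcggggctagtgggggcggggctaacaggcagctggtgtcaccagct
Cyp4f18: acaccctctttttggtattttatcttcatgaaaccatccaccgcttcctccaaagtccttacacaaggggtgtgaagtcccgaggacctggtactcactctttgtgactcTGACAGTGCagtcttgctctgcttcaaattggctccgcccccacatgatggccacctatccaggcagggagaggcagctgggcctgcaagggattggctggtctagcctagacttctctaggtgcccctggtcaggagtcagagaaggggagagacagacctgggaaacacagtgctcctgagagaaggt
Cyp2b10: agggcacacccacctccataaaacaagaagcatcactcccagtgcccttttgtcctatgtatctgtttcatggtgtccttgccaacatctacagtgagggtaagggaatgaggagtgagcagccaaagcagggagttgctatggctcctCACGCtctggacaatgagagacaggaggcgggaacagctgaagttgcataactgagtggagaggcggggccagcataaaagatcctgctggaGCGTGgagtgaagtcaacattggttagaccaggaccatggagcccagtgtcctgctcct

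The Ephx1 window held 1 match to the letters of the TATA box (TATAAA), at offset -214 from the start site, and no match to the other motifs. The Cyp4f18 window held 1 antioxidant response element (TGACNNNGC), and the Cyp2b10 window held 2 copies of the core of the xenobiotic response element that the aryl hydrocarbon receptor binds (GCGTG), 1 on each strand. No match in these 3 windows overlapped another. Promoters were in the table for 24 of the 29 genes. The core GCGTG was in 6 of these 24, where 32.5% of 27025 promoters held it. The nuclear receptor motif AGGTCA was in 4 of 24 (16.0% of all promoters), TGACNNNGC in 3 of 24 (12.5%) and TATAAA in 9 of 24 (14.2%). The D-box TTANGTAA, bound by the clock output factors Dbp, Tef and Hlf, was in 0 of 24 (2.34% of all promoters). A match could lie anywhere in the window, and it describes the letters there and not a bound site.

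Ephx1 encodes the microsomal epoxide hydrolase, which turns epoxides made by P450 enzymes into diols. It read 5.55, 4.94 and 5.76 in deficient replicates 1, 2 and 3, against 8.23, 8.86 and 8.89 in the control replicates. All deficient arrays lay far below all control arrays, near the level 5 used as the filter. With the reading under that level raised to it, Ephx1 fell at least 9.35-fold (fitted log2 change -3.25 ± 0.28 SE, limma adjusted p = 0.00227). It passed with each array left out in turn, with changes from -3.46 to -3.01 and adjusted p up to 0.0193. A fit without variance moderation gave 0.0950.

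Ephx2, the soluble epoxide hydrolase, acts on fatty acid epoxides such as those that Cyp2c and Cyp2j enzymes make from arachidonic acid. Its values were 11.86, 12.31 and 12.62 in deficient arrays, against 12.69, 13.43 and 12.80 in control arrays. The groups did not overlap, but the gap was small beside the spread, and the log2 change of -0.71 ± 0.28 (SE) had a limma adjusted p of 0.276. Its 95% interval, -1.38 to -0.05, lay above that of Ephx1, -3.92 to -2.57, although the difference between the genes was not tested.

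Cyp4f18 hydroxylates the inflammatory lipid leukotriene B4 and is known in the mouse as an enzyme of leukocytes. It read 4.94, 4.86 and 4.20 in deficient arrays, against 6.31, 6.53 and 6.07 in control arrays. It passed the filter through the 3 control arrays alone, since no deficient array reached 5. Against that level it fell at least 2.47-fold (fitted log2 change -1.64 ± 0.25 SE, limma adjusted p = 0.0209). The call held without deficient replicate 1 or 3 and was lost without deficient replicate 2 or any 1 control, at adjusted p from 0.0664 to 0.0925. A second probe set of the gene stayed under the level on all arrays.

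Some genes of a list of myeloid markers were lower in the same arrays, where 1.98% of all genes tested were called lower. Of 6 tested, 3 fell: Tyrobp and Fcer1g, adaptors of leukocyte receptors, by 7.71-fold and 5.48-fold, and the macrophage marker Adgre1 by 3.89-fold (limma adjusted p = 0.00464, 0.00227 and 0.00868). Csf1r, Lyz2 and Cd14 were at -0.64, -0.41 and -0.31, did not pass and overlapped between the groups, and Cd68 stayed at or below 5 on all arrays. The mean level of the 7 genes of this list lay between 6.59 and 7.35 on deficient arrays, against 7.80 to 8.70 on control arrays. Of 3 stromal genes tested 0 passed, with a median of -1.69. In a bulk preparation these values do not show which leukocytes carried Tyrobp and Fcer1g. The part of myeloid or stromal cells, and of the lymphocytes given above, in the fall of Cyp4f18 was not tested.

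**Figure D2:**
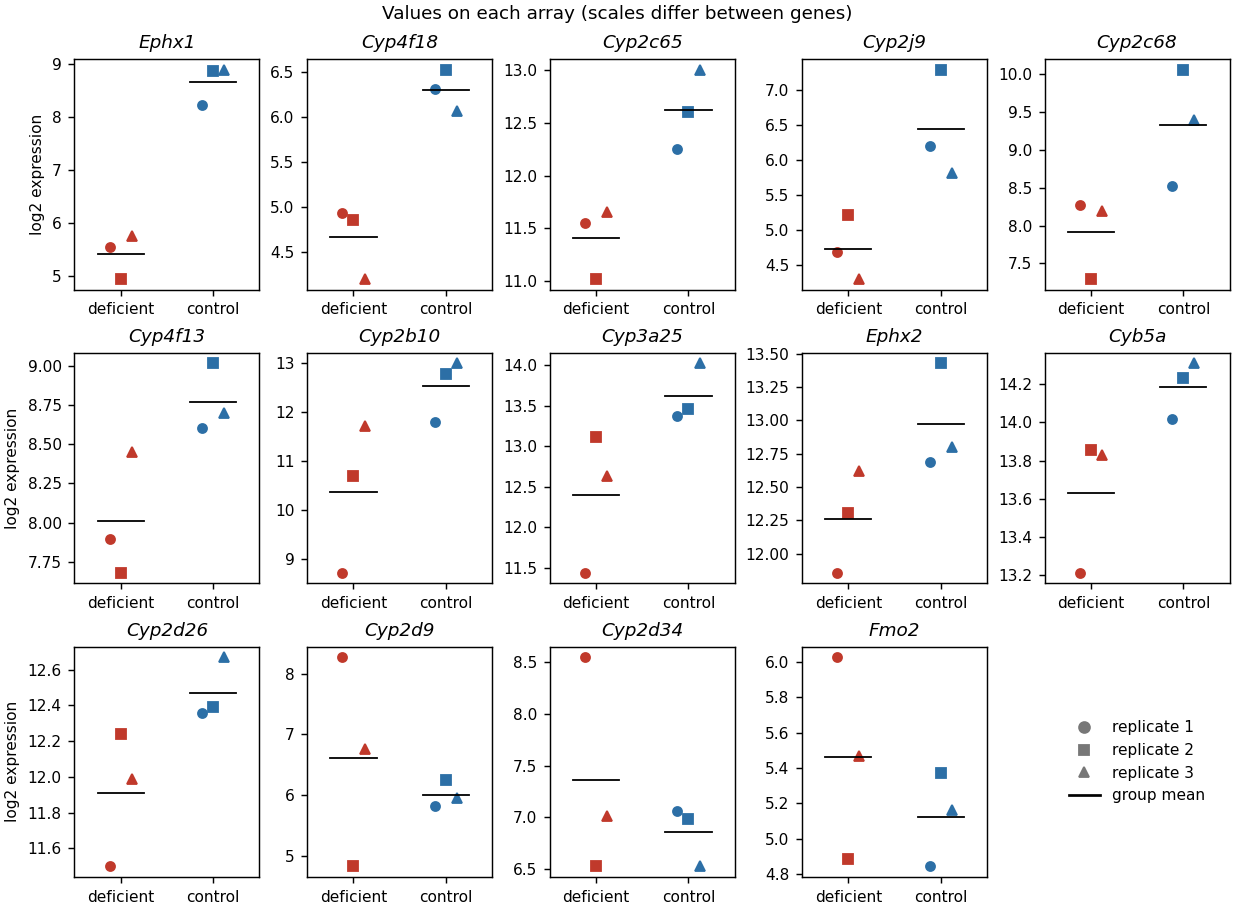
Log2 expression on each array for the 11 phase I genes with an unadjusted p under 0.05 and the 3 with the highest fitted change; deficient arrays are in red on the left, control arrays in blue on the right, symbols mark replicates and black lines group means. In the 11 the groups do not overlap, while Cyp2d9, Cyp2d34 and Fmo2 are highest in deficient replicate 1 and overlap elsewhere.

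The Cyp2c enzymes make epoxides and hydroxy acids from polyunsaturated fatty acids. All 3 genes tested had negative changes and 0 passed. Cyp2c65 read 11.55, 11.02 and 11.66 in deficient arrays, against 12.25, 12.61 and 13.01 in control arrays. Every deficient array was lower than every control, and the change was -1.21 ± 0.26 (SE) with a limma adjusted p of 0.0880. Cyp2c68 read 8.28, 7.29 and 8.19 in deficient arrays, against 8.52, 10.06 and 9.40 in control arrays (-1.41 ± 0.44 SE, adjusted p = 0.198). Deficient replicate 1 and control replicate 1 nearly touched for this gene. Cyp2c55 overlapped between the groups, at 12.23 ± 0.87 in deficient arrays and 12.86 ± 0.46 in control arrays (SD, n = 3 each), and its change of -0.62 had a 95% interval from -1.70 to 0.45. The Cyp2c65 probe set is of a design that can match several transcripts, and the Cyp2c genes resemble each other closely, so these values may be shared among paralogs.

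Cyp2c29 had the widest range among the genes left untested. It read 3.31, 3.10 and 3.42 in deficient arrays, against 3.65, 9.09 and 7.29 in control arrays. Only control replicates 2 and 3 were above the level, and control replicate 1 lay with the deficient arrays. Dbp, a clock output factor that regulates hepatic P450 genes in the mouse, read 7.44, 8.07 and 8.45 in deficient arrays, against 7.50, 12.42 and 11.03 in control arrays. Its relative Hlf read between 2.57 and 2.66 in deficient arrays, against 2.69, 7.65 and 4.95 in control arrays. Cyp2c29, Dbp and Hlf thus shared the order of the control arrays, with replicate 2 highest and replicate 1 lowest. Dbp did not pass (-2.33 ± 1.14 SE, limma adjusted p = 0.346), and its part in the Cyp2c29 values was not tested.

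Cyp2b10, a classical target of the xenobiotic receptor CAR (Nr1i3) in mouse liver, spread widely among the deficient arrays. It read 8.73, 10.70 and 11.71 in deficient replicates 1, 2 and 3, against 11.81, 12.78 and 12.99 in control replicates 1, 2 and 3. The groups did not overlap, but deficient replicate 3 came within a small step of control replicate 1. The change of -2.15 ± 0.73 (SE) had a limma adjusted p of 0.227 and a 95% interval from -3.89 to -0.41. Without deficient replicate 1 it was -1.32, and the other probe sets of the gene were at -2.28 and -2.38. Nr1i3 itself was at -0.68 and did not pass.

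The Cyp2j enzymes also act on polyunsaturated fatty acids. Cyp2j9 read 4.69, 5.21 and 4.30 in deficient arrays, against 6.20, 7.29 and 5.82 in control arrays. Only 1 deficient array exceeded the level, and the change of -1.70 ± 0.41 (SE) had a limma adjusted p of 0.123. Cyp2j6 overlapped between the groups, at 10.42 ± 0.70 in deficient arrays and 11.25 ± 0.44 in control arrays (SD, n = 3 each), with a change of -0.84 and an adjusted p of 0.328. Its second probe set was at -1.39.

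The Cyp3a enzymes oxidise the broadest range of drugs, and Cyp3a11 is a standard target of the receptor PXR (Nr1i2) in the mouse. Of 4 tested, 3 had negative changes and 0 passed. Cyp3a25 read 11.44, 13.12 and 12.63 in deficient arrays, against 13.37, 13.46 and 14.02 in control arrays, with a change of -1.22 ± 0.43 (SE, limma adjusted p = 0.237). Deficient replicate 1 set much of that gap, and without it the change was -0.75. Cyp3a11 read 13.51 ± 0.67 in deficient arrays and 14.30 ± 0.39 in control arrays (SD, n = 3 each, change -0.79, adjusted p = 0.328). Cyp3a13 stood apart from these relatives in direction, at 13.86 ± 0.20 in deficient arrays and 13.66 ± 0.28 in control arrays, and its 95% interval of -0.28 to 0.69 held changes in either direction. Cyp3a44 lay at the filter level, with a change of -0.30 and with 1 deficient and 2 control arrays above 5. Nr1i2 was at -0.25 (adjusted p = 0.500).

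The Cyp4 enzymes hydroxylate the far end of fatty acids and eicosanoids. All 6 tested had negative changes, and only Cyp4f18 passed. Cyp4f13 read 7.90, 7.68 and 8.45 in deficient arrays, against 8.60, 9.01 and 8.70 in control arrays, without overlap (-0.76 ± 0.24 SE, limma adjusted p = 0.202). Cyp4f16 varied as much within the groups as between them, at 10.14 ± 0.74 in deficient arrays and 10.77 ± 0.94 in control arrays (SD, n = 3 each). Cyp4f14, at -0.36, lay below all controls in deficient replicate 1 and among or near them in the others. Cyp4v3, at -0.77, lay below all controls in deficient replicates 1 and 2 and among them in replicate 3. Cyp4b1 was at -0.70, with a 95% interval from -1.64 to 0.23.

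The Cyp2d genes did not share a direction. Of 6 tested, 3 were below 0 and 3 above, and 0 passed. Cyp2d26 read 11.50, 12.24 and 11.99 in deficient arrays, against 12.36, 12.39 and 12.67 in control arrays (-0.56 ± 0.23 SE, limma adjusted p = 0.283). Cyp2d22 was at -0.60 and Cyp2d12 at -0.15. The other 3 were highest in 1 deficient mouse. Cyp2d9 read 8.28, 4.82 and 6.76 in deficient arrays, against 5.81, 6.24 and 5.96 in control arrays, and Cyp2d34 read 8.55, 6.52 and 7.01 in deficient arrays, against 7.06, 6.98 and 6.53 in control arrays. For both, deficient replicate 1 was the highest array and deficient replicate 2 the lowest, and the changes were 0.61 ± 0.78 and 0.51 ± 0.50 (SE, limma adjusted p = 0.704 and 0.623). Cyp2d10 read 9.26, 6.44 and 7.69 in deficient arrays, against 7.35, 8.02 and 7.31 in control arrays, in the same order among the deficient mice. Without deficient replicate 1 the changes of Cyp2d9 and Cyp2d34 were -0.22 and -0.0867, and that of Cyp2d10 was -0.49 in place of 0.24.

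The colon marker Aqp8 ordered the deficient arrays as Cyp2d9, Cyp2d10 and Cyp2d34 did. It read 12.81, 9.63 and 11.33 in deficient replicates 1, 2 and 3, against 11.03, 10.68 and 11.32 in control arrays. The order was not shared in the control arrays. Aqp8 was lowest in control replicate 2, where Cyp2d9 and Cyp2d10 were highest, and highest in control replicate 3, where Cyp2d34 was lowest. Outside the Cyp2d genes, Cyp2c55, Cyp2c68, Cyp2s1 and Fmo2 also had this order among the deficient arrays. The mean level of the 4 colon genes lay between 11.93 and 13.45 on deficient arrays, against 12.24 to 12.81 on control arrays, and 0 of the 4 passed. The part of the segment sampled in the Cyp2d values was not tested.

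**Figure D3:**
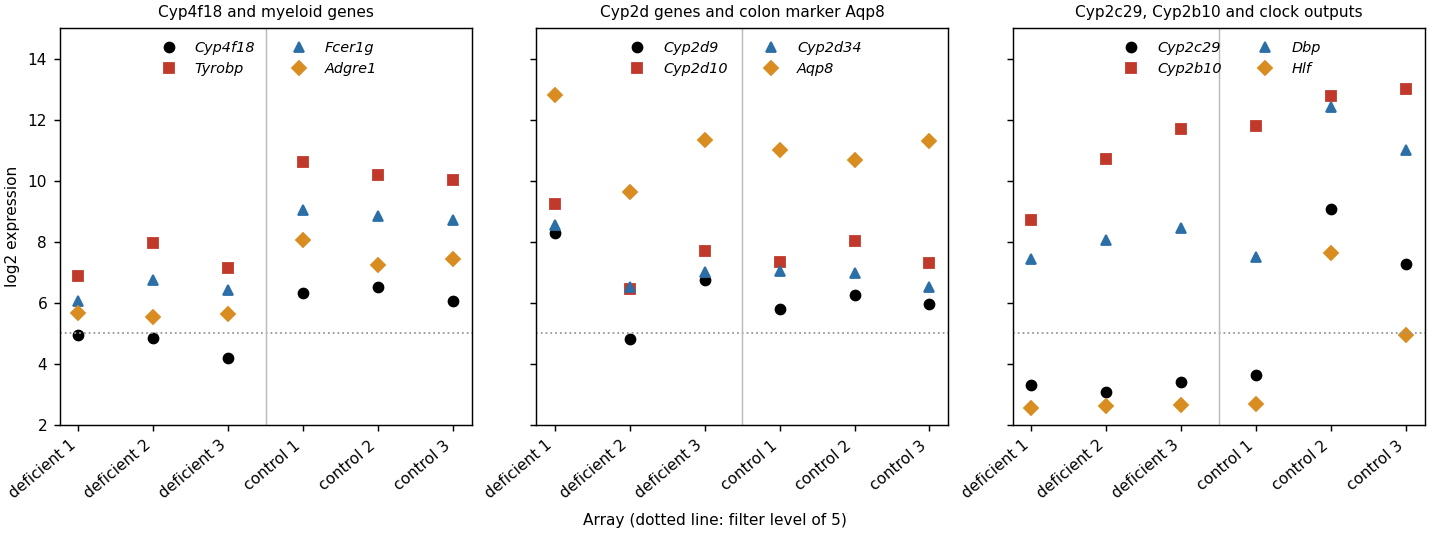
Log2 expression on each array (vertical axis), with deficient arrays left and control arrays right of the grey line; heights are compared within a gene, not between genes. Cyp4f18 is low on the 3 deficient arrays, as are the 3 genes of the myeloid list that fell. The genes of that list that did not fall or were not tested (Csf1r, Lyz2, Cd14 and Cd68) are not shown. Cyp2d9, Cyp2d10, Cyp2d34 and Aqp8 are highest in deficient replicate 1. Cyp2c29, Dbp and Hlf are highest in control replicate 2, while Cyp2b10 is lowest in deficient replicate 1.

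Among the remaining tested genes, Cyb5a, the cytochrome b5 that feeds electrons to P450 enzymes, read 13.21, 13.86 and 13.83 in deficient arrays, against 14.02, 14.23 and 14.31 in control arrays. The arrays did not overlap, and the change was -0.56 ± 0.22 (SE, limma adjusted p = 0.279). Of 3 Fmo genes, which oxygenate nitrogen and sulfur atoms, 0 passed. Fmo5 was at -0.29, and 2 other probe sets were at -0.43 and -0.98. Fmo2 read 6.03, 4.89 and 5.47 in deficient arrays, against 4.84, 5.37 and 5.16 in control arrays, close to the filter level throughout, with a change of 0.34 (adjusted p = 0.596). Fmo4 varied widely among replicates of both groups, with a change of -0.71, at 5.62 ± 1.42 in deficient arrays and 6.33 ± 1.16 in control arrays (SD, n = 3 each). Cyp2s1, a P450 of epithelia outside the liver, was at -0.14 with a 95% interval from -0.77 to 0.48.

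The deficient mice also differed from each other in these enzymes. The median deviation of the 29 genes from their control means was -0.98, -0.52 and -0.35 in deficient replicates 1, 2 and 3, against -0.24, 0.22 and 0.04 in control replicates 1, 2 and 3. Over all genes tested the same median lay between -0.05 and 0.05 on every array. In deficient replicate 1, 18 of the 29 lay below all controls and 7 above all controls. Those 7 were Cyp2d9, Cyp2d10, Cyp2d12, Cyp2d34, Cyp2s1, Cyp3a13 and Fmo2, named here after their values were seen. In deficient replicates 2 and 3, 19 and 16 genes lay below all controls, and 1 and 2 above. Without deficient replicate 1 the median change of the 29 was -0.42.

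**Figure D4:**
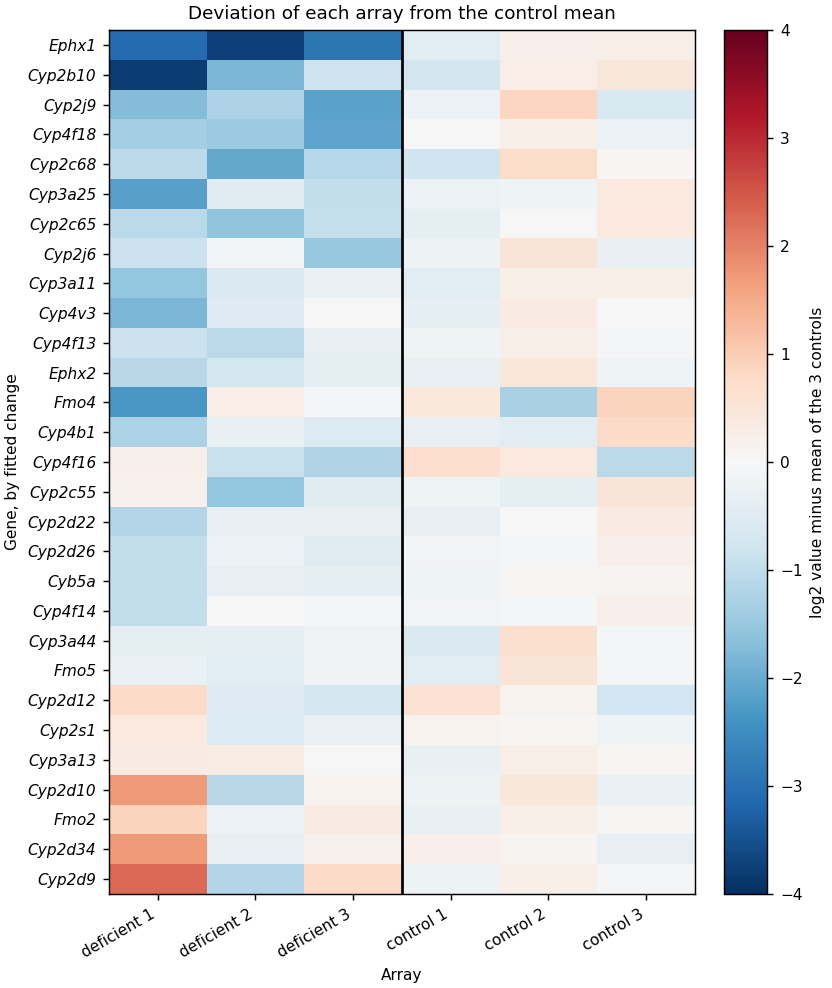
Log2 value minus the mean of the 3 controls for each of the 29 genes (rows, by fitted change) on each array (columns, deficient arrays left of the line). Blue runs through most rows of the 3 deficient arrays, and deficient replicate 1 also holds the red cells of Cyp2d9, Cyp2d10 and Cyp2d34.

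The other 32 genes were not tested, and 30 of them read at or below 5 on all 6 arrays by the probe set used. Cyp1a1, the enzyme most closely tied to the aryl hydrocarbon receptor, reached 3.42, 3.09 and 3.39 in deficient arrays, against 3.67, 4.43 and 4.03 in control arrays, all under the level. Cyp2b9, Cyp2c38 and Cyp2d13 also had a highest reading between 4 and 5. Cyp2u1 exceeded 5 on 1 array, at 5.12 in control replicate 3. Cyp2c23 read between 1.89 and 2.38 in deficient arrays, against 3.95 to 3.97 in control arrays. A further 25 genes had a highest reading under 4 by the probe set used: Cyp1a2, Cyp1b1, Cyp2a12, Cyp2b13, Cyp2b19, Cyp2c37, Cyp2c39, Cyp2c50, Cyp2c54, Cyp2c70, Cyp2d40, Cyp2e1, Cyp2f2, Cyp2g1, Cyp2j5, Cyp2j11, Cyp2j13, Cyp2r1, Cyp3a16, Cyp4a14, Cyp4a31, Cyp4f15, Cyp4f39, Cyp4x1 and Fmo1. Another probe set of Cyp1b1 reached 4.83 in control replicate 1. Tested genes nearest the filter were Cyp4f18 and Cyp3a44, above 5 on 3 arrays each, and the untested genes nearest to it were Cyp2c29 and Cyp2u1.

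Genes around the enzymes were read from lists of their regulators and partners. Among 19 sensors and regulators tested, 2 fell and 0 rose, with a median log2 change of -0.49. Over all genes tested 1.98% were called lower and 0.112% higher, with a median of -0.04. Ahr, the aryl hydrocarbon receptor, read 8.54, 8.20 and 8.17 in deficient arrays, against 9.55, 9.31 and 9.40 in control arrays, and fell by 2.17-fold (limma adjusted p = 0.0238). Ppara, the fatty acid receptor that drives Cyp4a genes in liver, fell by 2.16-fold (adjusted p = 0.0417), and its other probe sets were at -0.90 and -0.48. With 1 array left out, Ahr passed only without deficient replicate 1 (adjusted p up to 0.120 in the others) and Ppara in none of the 6 fits (0.0869 to 0.130). Ahr was also lost without moderation, without a filter and with the mean of all its probe sets (0.0570 to 0.125). A second Ahr probe set read between 2.19 and 2.26 on all arrays, and the change of their mean was -0.56. Targets of the aryl hydrocarbon receptor did not pass, but all 3 tested outside the P450 genes had negative changes. Nqo1 was at -0.62 without overlap between the groups, Xdh at -0.52 and Tiparp at -0.36. Their limma adjusted p was 0.154, 0.522 and 0.513.

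Enzymes that perform phase I steps without P450 were also mostly lower by mean. Over all genes tested 54.6% had negative changes, with a median of -0.04, and 1.98% were called lower. Of 27 oxidoreductases tested, 23 had negative changes and 4 positive, with a median of -0.52, and 1 fell. This was Akr1c14, a hydroxysteroid dehydrogenase, which read 9.38, 8.55 and 8.39 in deficient arrays, against 10.59, 10.62 and 10.60 in control arrays, and fell by 3.56-fold (limma adjusted p = 0.0200). Without deficient replicate 2 or any 1 control its adjusted p was between 0.0733 and 0.104. Of 7 haem synthesis genes, which supply the cofactor of P450 enzymes, 0 passed and 6 had negative changes, with a median of -0.29. Ppox and Urod were at -1.03 and -0.996 (adjusted p = 0.118 and 0.202). Of 8 redox partners and haem proteins 0 passed, with a median of -0.21 and with Fdx1 and Hmox2 at -0.62 and -0.45. Of 4 P450 genes of other families 0 passed, with 2 changes above 0 and 2 below. Cyp20a1 was at 0.94 and the sterol demethylase Cyp51 at 1.51, each without overlap between the groups (adjusted p = 0.0910 and 0.159). The sterol hydroxylase Cyp27a1 was at -1.29 without overlap between the groups, and Cyp39a1 was at -0.37 (adjusted p = 0.198 and 0.692).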

How the data were processed

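Expression was measured on 1 Affymetrix array per mouse in 3 deficient and 3 control mice. The authors deposited log2 values, 1 per probe set and array. Partek 6.5 and GCRMA stand in the submitters' processing notes with no role. That the scale is log2 was read from the values (lowest 0.420, highest 16.4, array medians 3.26 to 3.34). Scanner intensities were not analysed here, and precision is limited by the 6 arrays. Of 45101 probe sets, 64 controls were left out. The remainder had 1 symbol (34945), several (932) or none (9160) in the platform annotation. All 61 phase I symbols matched the gene table of GRCm38.p6.

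A linear model without covariates was fitted in limma 3.58.1 (R 4.3.3, lmFit and eBayes) over the 8893 genes above 5 on at least 3 arrays. P-values were adjusted by Benjamini-Hochberg, with a threshold of 0.05. They set the difference between groups against the spread between mice, with the variance of each gene moderated over all genes tested. Changes are deficient minus control. The level 5 is a filter and not a measured background. Values at or below it were raised to it for the folds of Ephx1 and Cyp4f18, which are therefore no measured bounds. On simulated data of 8893 genes for this comparison, limma called 36% of genes given a log2 change of 1, 80% given 2 and 98% given 3, and 12 of 159 calls were false. These data kept gene means but drew independent normal noise, with within-group spreads shuffled among genes. Correlation between genes and any tie of spread to level were therefore not simulated, and the shares may differ in the real arrays. An exact permutation test of a single gene, two-sided, reaches at best p = 0.1 with these 6 arrays.

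Every tested phase I gene was named, with all array values for those at an unadjusted p under 0.05 and the 3 highest and 3 lowest changes. Of each pathway list, called genes or those with the smallest p were named. The genes and lists were chosen with earlier results of these data known. Alternatives changed moderation, array weights, filter, normalization, probe set, replicate block and the arrays included.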

Additional observations from a re-analysis of the deposited data

How the results depend on the processing

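Ephx1 kept its direction in 18 alternatives and its call in 17, failing without variance moderation. Cyp4f18 kept its direction in 17 and its call in 11, with adjusted p up to 0.187. The phase I genes called lower numbered 0 without moderation and 1 with the mean of all probe sets, and 1 to 2 with 1 array left out. Over all genes, lower calls numbered 7 without moderation, 85 without a filter and 111 with the mean of all probe sets (88 to 203 with 1 array left out). Higher calls numbered 0 without moderation or without a filter, 33 with array weights, 17 with median centring and 6 with the mean of all probe sets (3 to 36 with 1 array left out). The median change of the phase I genes was -0.0670 over 61 genes without a filter, and -0.73 to -0.42 with 1 array left out. Without a filter Cyp2c23 was called (adjusted p = 0.0214) with all its values under 5. Array weights added Cyp2c65 (adjusted p = 0.0297). The regulators called numbered 0 without moderation, without a filter and with the mean of all probe sets, 1 with median centring and 0 to 1 with 1 array left out. The other oxidoreductases called numbered 0 without moderation or without a filter, 5 with array weights and 0 to 2 with 1 array left out. Array weights called 1 of the receptor targets and 1 of the P450 genes of other families. Of the haem synthesis genes 0 to 1 were called with 1 array left out. Same-numbered deviations correlated at 0.05, -0.29 and 0.00, and differently numbered ones between -0.29 and 0.24. With so few arrays these values cannot show whether replicate numbers pair the mice. With the replicate block 3 phase I genes were called, adding Cyp2j9 (adjusted p = 0.0375), and 0 regulators and 0 oxidoreductases. Of 512 refits of single phase I genes 10 turned the sign, none of a called gene. Cyp2d10 was at -0.0349 with array weights. With 1 array left out the ranges were -0.49 to 0.91 for Cyp2d10, -0.61 to 0.15 for Cyp2d12, -0.0867 to 0.93 for Cyp2d34, -0.22 to 1.51 for Cyp2d9, -0.41 to 0.0594 for Cyp2s1, -0.59 to 0.0219 for Cyp3a44 and -1.36 to 0.10 for Fmo4. The cause of these changes was not tested. Levels near 5 limit the size of the folds of Ephx1 and Cyp4f18.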

Other observations

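Probe sets that name 2 genes of these families stood outside the comparisons. The probe set shared by Cyp4a31 and Cyp4a10, fatty acid hydroxylases that Ppara drives in mouse liver, read 2.61, 2.55 and 2.97 in deficient arrays, against 4.75, 3.61 and 4.99 in control arrays. All 6 values were under the level 5, so they give no measured fold. The probe set shared by Cyp4f37 and Cyp4f16 read 11.42, 11.07 and 10.40 in deficient arrays, against 11.84, 11.01 and 10.61 in control arrays, and the groups overlapped. The probe set shared by Cyp2a5 and Cyp2a4 read between 2.57 and 2.59 in deficient arrays, against 2.54 to 2.87 in control arrays.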
